A study of Homo sapiens with 18 samples.

Results

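The enzymes of glycolysis and of the pentose phosphate pathway were followed at the level of their messenger RNA in 3 human cell lines kept in normoxia or in hypoxia. The 35 genes were taken by symbol, 25 of them from glycolysis and lactate metabolism, 8 from the pentose phosphate arm and 2 coding for fructose-1,6-bisphosphatase, of 23106 genes counted in each library. All 35 were present in the count tables, TIGAR under its older symbol. The rule that took them used the symbols alone.

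PolyA+ RNA was sequenced in 18 libraries, 3 from each line in each oxygen condition. HKC-8 is a line of human kidney proximal tubule cells, and its hypoxic libraries are labelled 0.5% oxygen for 16 h, although their titles carry 0.1. HepG2 is a hepatocellular carcinoma line, labelled 0.5% oxygen for 16 h. The RCC4 libraries are labelled RCC4+VHL, a kidney carcinoma line lacking functional VHL to which VHL was returned, so that the normoxic controls carry it too, and all 6 of their titles carry the word Replacement, which the labels do not explain. Their hypoxic libraries are labelled 1.0% for 24 h, whereas the study describes the same exposure for every line. Normoxia is ambient oxygen, given as 21% in the titles of HKC-8. Since the exposures differ by these labels, the response of RCC4+VHL cells is set beside the others without a test of the difference. Nothing in the labels says whether replicates were separate cultures, so each p-value measures only the spread between these libraries. Each line is 1 cell population, and a line is not a sample of its tissue.

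Glycolysis splits glucose into pyruvate through a chain of enzymes, most of which are coded by several paralogues that differ in tissue distribution and regulation. Lactate dehydrogenase then turns pyruvate into lactate and restores the oxidised cofactor that lets the chain run without oxygen. Many genes of the chain are textbook targets of the hypoxia-inducible factors, which bind DNA at ACGTG or GCGTG, whereas the pentose phosphate pathway branches off at glucose 6-phosphate to make NADPH and ribose.

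Total counts ranged from 40915980 to 97984260 per library. Of 10 hepatocyte markers, all exceeded 1 CPM in HepG2 cells, against none in HKC-8 and 2 in RCC4+VHL cells. Of 10 kidney tubule markers, 6 exceeded 1 CPM in RCC4+VHL but only 3 in HKC-8 cells, where LRP2 and SLC22A6 had no count in normoxia and AQP1 had 2 to 8 counts, so 7 of the 10 stood under 1 CPM in the line labelled as proximal tubule. Of 5 leukocyte markers, LYZ stood at 2374 to 2482 CPM in normoxic HepG2 cells while PTPRC and CD3E had no count there. The erythroid, endothelial and fibroblast lists summed to at most 0.44, 3.61 and 9.68 CPM in any library, and the epithelial list to 1577 to 4355 CPM. The VHL transcript was present in all libraries at 62.0 to 111.6 CPM, and at 62.0 to 67.3 CPM in RCC4+VHL cells. Gene counts do not tell a returned VHL from the line's own mutant transcript.

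Hypoxia raised most of the tested genes of glycolysis and lactate metabolism in every line. Those called higher were 16 of 20 in HKC-8, 15 of 21 in RCC4+VHL and 15 of 22 in HepG2 cells. Of the 8 pentose phosphate genes 2, 1 and 2 were called higher, in the same order of lines. Over all genes tested the higher calls were 11.2%, 25.9% and 19.9%. The pentose phosphate share was thus below that of all genes in RCC4+VHL cells only. The 35 genes took 2.33% ± 0.0918 (SD, n = 3) of all counts in normoxic HKC-8 cells and 3.76% ± 0.216 in hypoxic ones. For RCC4+VHL the normoxic share was 2.20% ± 0.02 and the hypoxic share 3.72% ± 0.0338, and for HepG2 these were 1.22% ± 0.0207 and 2.75% ± 0.0657. In bulk RNA, a larger share of cells with a transcript and more transcript per cell cannot be told apart. Changes below are log2 fold changes of hypoxia over normoxia with their standard errors, fitted on all genes of a line by edgeR's quasi-likelihood test, and a gene was called at a Benjamini-Hochberg adjusted p under 0.05 over all genes tested in that line. Levels are CPM, counts scaled to a common library size with TMM factors over all 18 libraries, printed for replicates 1, 2 and 3 in that order.

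In HKC-8 cells, 28 of the 35 genes passed the filter on low counts, and 18 were called higher and 3 lower, where 11.2% of all genes tested were called higher and 9.12% lower. In RCC4+VHL cells 29 genes passed, and 16 were higher and 12 lower, beside 25.9% and 24.2% of all genes. A single fit of all 18 libraries, which shares the spread between lines, left BPGM as the 1 lower call in RCC4+VHL, beside 9.27% of all genes, with 15 higher beside 12.2%. It gave 21 higher and 5 lower in HKC-8, where 16.4% of all genes were called in each direction, and 17 and 5 in HepG2 cells beside 15.2% and 14.3%. The single fit filters over all 18 libraries and tested 15307 genes, against 13536 in HKC-8 alone. Its 21 higher calls include members that did not pass the filter within HKC-8 cells, and those calls are not read as results. In HepG2 cells 31 passed, with 17 higher and 5 lower beside 19.9% and 19.2%. With the replicate number as a block, which paired the HKC-8 libraries, 19 members were higher and 6 lower in that line, where 21% of all genes were then called higher and 21.6% lower, so the share of members lower was near that of all genes. The block gave 16 higher and 12 lower in RCC4+VHL, beside 26.2% and 24.5%, and 17 higher and 7 lower in HepG2 cells, beside 21.7% and 21.3%. The median log2 fold change of the genes that passed was 0.61 in HKC-8, 0.47 in RCC4+VHL and 0.95 in HepG2 cells, where that over all genes tested rounded to 0.00 in each line. Scaling by total count alone, which shifts all genes of RCC4+VHL by a median of -0.08 and those of HepG2 by -0.10, gave 18 higher and 4 lower in HKC-8, beside 10.2% and 8.53% of all genes, 16 higher and 12 lower in RCC4+VHL, beside 17.9% and 36.3% of all genes, and 17 higher and 9 lower in HepG2 cells, beside 14.5% and 30.0%. Over all genes that scaling moved the share of calls that were higher from 51.7% to 33.0% in RCC4+VHL and from 50.8% to 32.6% in HepG2 cells.

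The 16 genes that were higher in all 3 lines hold every step from hexokinase to lactate dehydrogenase, namely HK1 and HK2, GPI, PFKL and PFKP, ALDOA and ALDOC, TPI1, GAPDH, PGK1, PGAM1, ENO1 and ENO2, PKM and LDHA, and outside the chain H6PD. BPGM and TALDO1 were lower in all 3 lines. HK2, ALDOC, PGK1, ENO2 and LDHA were higher by at least 1 log2 in each line. The share of all genes that met the same criteria in all 3 lines was not counted, so these 3-line counts have no background beside them. HK3, FBP1 and LDHC passed the filter in no line.

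**Figure D1:**
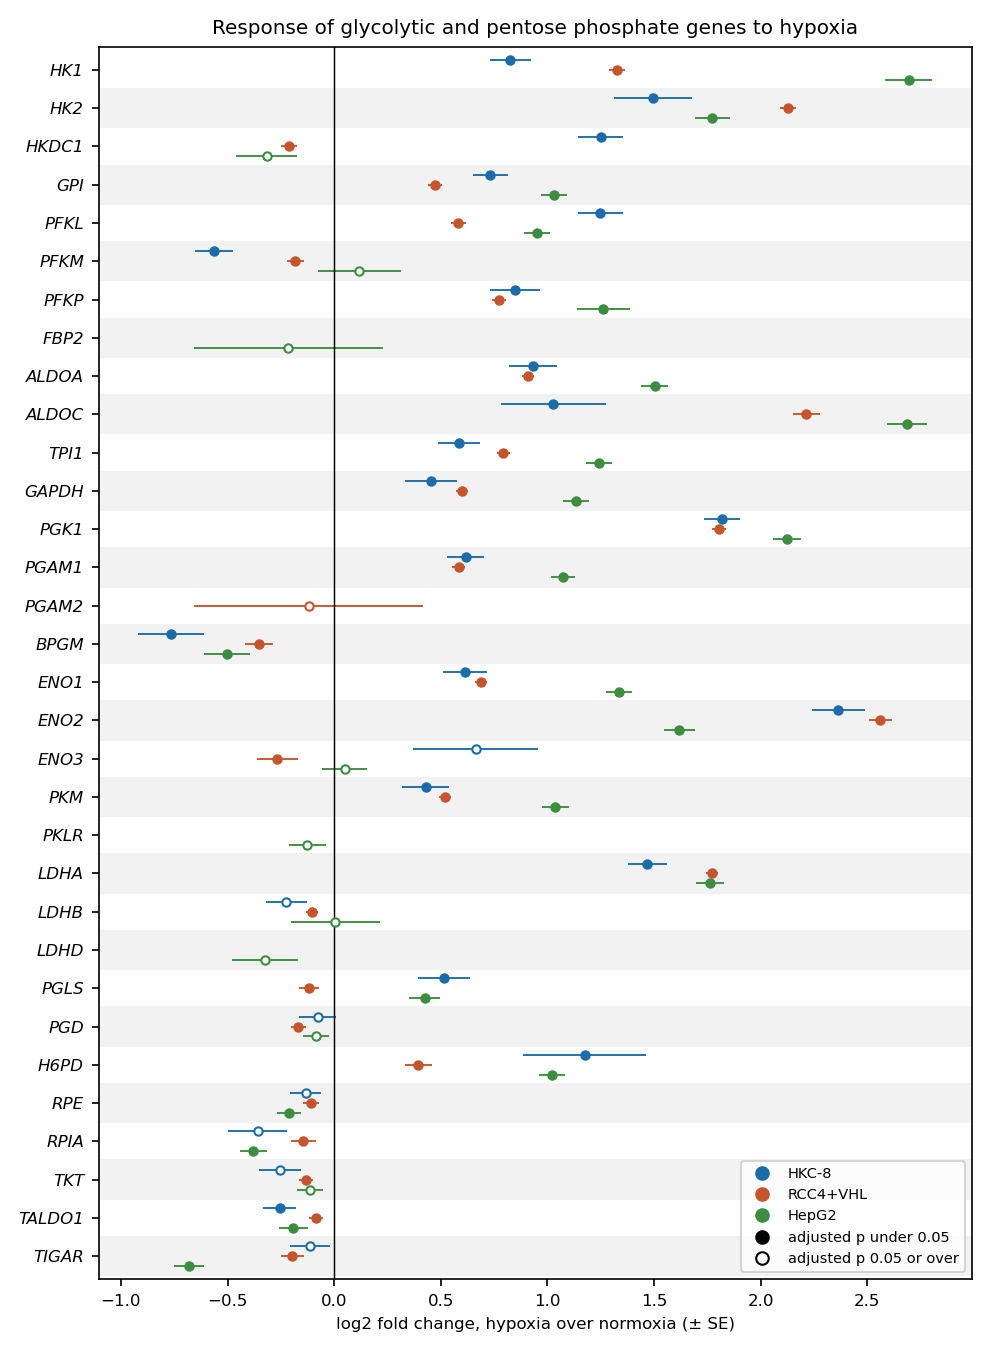
Log2 fold change of hypoxia over normoxia on the x axis, with its standard error as a bar, for each gene on the y axis that passed the filter in at least 1 line (blue HKC-8, orange RCC4+VHL, green HepG2, 3 libraries a group). Filled points have an adjusted p under 0.05. Of the glycolytic chain, HKDC1, PFKM, PGAM2, BPGM, ENO3, PKLR, LDHB and LDHD have a point left of 0 in at least 1 line and all others lie right of 0, while in the pentose phosphate arm only H6PD and PGLS have points right of 0.

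Hexokinases phosphorylate glucose and so trap it in the cell. HK1 is the broadly expressed form, HK2 is the form of muscle and of many tumours, and HKDC1 is a less studied relative whose gene (GRCh37 chr10:70980088-71027308, plus strand) lies next to HK1 (chr10:71029740-71161640, plus strand). Gene spans given here are those of GENCODE and take in its longest isoforms. Normoxic HKC-8 libraries had 247, 257 and 223 CPM of HK1 and the hypoxic ones 456, 448 and 382 CPM. In RCC4+VHL cells HK1 read 70.7, 70.0 and 67.9 CPM in normoxia and 176, 171 and 174 CPM in hypoxia. Its level in HepG2 cells was far lower, 3.31, 3.45 and 2.91 CPM in normoxia and 21.4, 19.2 and 22.2 CPM in hypoxia. No normoxic library overlapped a hypoxic one of its line, and the log2 fold change was 0.83 ± 0.10 (adjusted p = 7.84e-04) in HKC-8, 1.33 ± 0.04 (adjusted p = 1.09e-18) in RCC4+VHL and 2.70 ± 0.11 (adjusted p = 5.29e-10) in HepG2 cells.

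HK2 (GRCh37 chr2:75061254-75120486, plus strand) measured 118, 134 and 76.1 CPM in normoxic HKC-8 cells and 291, 341 and 289.5 CPM in hypoxic ones. Values in RCC4+VHL cells were 56.7, 56.4 and 54.8 CPM against 241, 253 and 237 CPM. HepG2 cells held 134, 120.3 and 157 CPM in normoxia and 485, 450.3 and 469 CPM in hypoxia. HK2 thus stood apart between the conditions in each line, by 1.49 ± 0.18 (adjusted p = 0.00112), 2.13 ± 0.04 (adjusted p = 2.25e-22) and 1.77 ± 0.08 (adjusted p = 2.31e-09) on the log2 scale in the same order of lines. HKDC1 went from 29.6, 31.8 and 36.8 CPM to 72.1, 76.4 and 84.9 CPM in HKC-8 cells, a rise of 1.25 ± 0.11 (adjusted p = 1.29e-04). The same gene fell from 236, 236 and 219 CPM to 198, 202 and 195 CPM in RCC4+VHL cells, a log2 fold change of -0.21 ± 0.04 (adjusted p = 3.24e-05, and 0.238 in the single fit of all 18 libraries). HepG2 libraries read 39.0, 47.0 and 63.6 CPM in normoxia and 36.9, 37.1 and 46.3 CPM in hypoxia, which overlapped, and HKDC1 was not called there at -0.32 ± 0.14 (adjusted p = 0.0963). It was called lower in HepG2 cells under 4 of the 13 alternatives, namely with total counts (-0.41, adjusted p = 0.033), with no filter on low counts (-0.32, adjusted p = 0.045), with the replicate block (-0.30, adjusted p = 0.00636) and without normoxic replicate 1 (-0.47, adjusted p = 0.0111), and stood at -0.11 without normoxic replicate 3. HK3 had no count in any library except 1 hypoxic HepG2 library.

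Read per kilobase of the longest coding transcript, so that paralogues can be compared, the leading hexokinase differed by line. In normoxic HKC-8 cells HK1 made up 68.2% ± 1.96 (SD, n = 3) of the summed level of the step, HK2 21.6% ± 4.02 and HKDC1 10.2% ± 2.15. Normoxic RCC4+VHL cells had 69.8% ± 0.482 of it as HKDC1 and 11.002% ± 0.189 as HK2. In normoxic HepG2 cells HK2 led with 63.0% ± 3.82 and HK1 was 2.13% ± 0.476. In hypoxia HK2 made up 29.8% ± 1.73 in HKC-8, 30.7% ± 0.654 in RCC4+VHL and 83.7% ± 1.45 in HepG2 cells, while HKDC1 made up 38.4% ± 0.131 in RCC4+VHL and 11.02% ± 1.31 in HepG2 cells. In RCC4+VHL cells the HKDC1 share of all 3 hypoxic libraries lay below that of all 3 normoxic libraries.

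**Figure D2:**
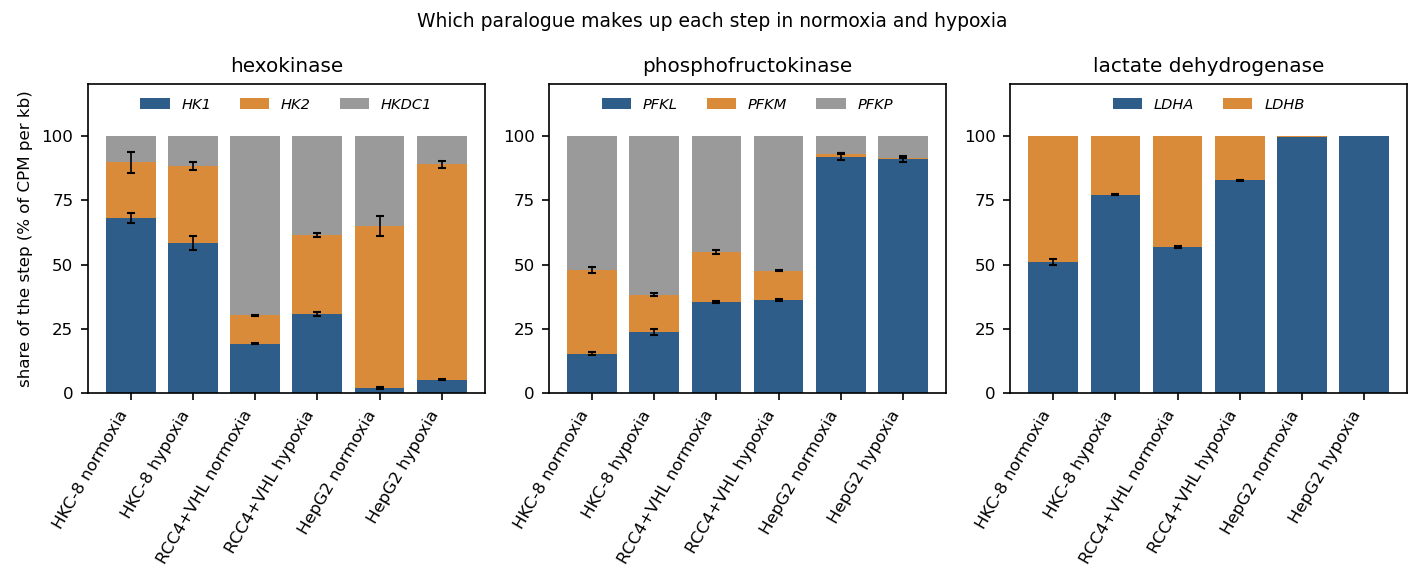
Share of each paralogue in the summed level of its step, in percent of CPM per kilobase on the y axis, for the 3 lines in normoxia and hypoxia on the x axis (stacked bars are means of 3 libraries, black bars the SD of the paralogue below them). The HKDC1 share falls in RCC4+VHL and HepG2 cells, PFKM shrinks in all 3 lines, and LDHA grows from 51.1% to 77.2% in HKC-8 and from 56.8% to 82.8% in RCC4+VHL cells. HK3 and LDHC, with shares under 0.1%, are not drawn.

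GPI, which turns glucose 6-phosphate into fructose 6-phosphate and has no paralogue among these genes, went from 366, 402 and 371 CPM to 621, 666 and 600.1 CPM in HKC-8 cells. RCC4+VHL libraries read 436, 449 and 420.2 CPM in normoxia and 603, 602 and 598 CPM in hypoxia. In HepG2 cells it read 362, 334 and 352 CPM and then 728, 681 and 732 CPM, so that all 3 lines kept normoxic and hypoxic libraries apart. Its log2 fold change was 0.73 ± 0.08 (adjusted p = 6.37e-04), 0.47 ± 0.03 (adjusted p = 2.22e-11) and 1.03 ± 0.06 (adjusted p = 2.30e-08) in HKC-8, RCC4+VHL and HepG2 cells.

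Phosphofructokinase commits sugar to glycolysis and is built from liver (PFKL), muscle (PFKM) and platelet (PFKP) subunits. PFKL read 74.8, 77.8 and 67.2 CPM in normoxic and 157, 198 and 166 CPM in hypoxic HKC-8 cells. RCC4+VHL cells had 131, 135 and 128 CPM and 194, 203 and 191 CPM of it, and HepG2 cells 140.4, 126 and 129 CPM and 267, 252 and 247 CPM. The liver subunit rose in all 3 lines, by 1.25 ± 0.10 (adjusted p = 1.24e-04), 0.58 ± 0.04 (adjusted p = 5.60e-12) and 0.95 ± 0.06 (adjusted p = 5.93e-08). PFKP had 290.5, 315 and 238 CPM in normoxic and 500.2, 551 and 462 CPM in hypoxic HKC-8 cells. Its RCC4+VHL libraries read 188, 189.9 and 183 CPM and 321, 321 and 312 CPM. In HepG2 cells PFKP was scarce, with 9.02, 11.9 and 12.1 CPM in normoxia and 24.4, 24.1 and 30.6 CPM in hypoxia. It too rose in each line, by 0.85 ± 0.12 (adjusted p = 0.00201), 0.77 ± 0.03 (adjusted p = 5.21e-15) and 1.26 ± 0.12 (adjusted p = 4.32e-06).

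PFKM went the other way in both kidney lines. It fell from 187, 202 and 171 CPM to 121, 135 and 122 CPM in HKC-8 cells, a log2 fold change of -0.56 ± 0.09 (adjusted p = 0.00356). RCC4+VHL cells likewise fell from 83.4, 83.6 and 87.1 CPM to 73.0, 74.8 and 75.2 CPM, which is -0.18 ± 0.04 (adjusted p = 6.65e-04, and 0.0894 in the single fit). HepG2 cells had 2.04, 2.39 and 1.67 CPM of it in normoxia and 2.43, 2.24 and 1.97 CPM in hypoxia, which overlapped, and 0.12 ± 0.19 was not called (adjusted p = 0.671). Per kilobase, PFKM made up 32.6% ± 1.05 of the step in normoxic and 14.5% ± 0.499 in hypoxic HKC-8 cells, and 19.2% ± 0.732 and 11.5% ± 0.309 in RCC4+VHL cells. PFKL made up 92.0% ± 1.37 of the step in normoxic HepG2 cells, and PFKP was the largest part in both kidney lines.

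Aldolase splits the doubly phosphorylated sugar into the triose phosphates. ALDOA, the main form in most tissues, rose from 1339, 1469.7 and 1224 CPM to 2564, 2853 and 2257 CPM in HKC-8 cells, by 0.93 ± 0.11 (adjusted p = 9.42e-04). RCC4+VHL values were 1656, 1705 and 1648 CPM and 3102, 3158 and 3099 CPM, a difference of 0.91 ± 0.03 (adjusted p = 1.03e-17). HepG2 cells had 1465, 1429.8 and 1467 CPM and 4108, 3942 and 4315 CPM, a difference of 1.50 ± 0.06 (adjusted p = 6.44e-10). ALDOC (GRCh37 chr17:26900133-26903966, minus strand), known as the brain form, was close to absent in HKC-8 cells with 0.552, 0.665 and 0.748 CPM in normoxia and 1.13, 1.35 and 1.53 CPM in hypoxia. It reached 36.2, 35.2 and 36.9 CPM from 7.57, 7.95 and 7.91 CPM in RCC4+VHL cells and 77.6, 66.2 and 68.1 CPM from 12.1, 11.1 and 9.67 CPM in HepG2 cells. Its log2 fold change was 1.03 ± 0.25 (adjusted p = 0.0207) in HKC-8, 2.21 ± 0.06 (adjusted p = 2.72e-18) in RCC4+VHL and 2.69 ± 0.09 (adjusted p = 1.10e-10) in HepG2 cells, and the normoxic and hypoxic libraries did not overlap in any line. The HKC-8 call was lost without normoxic replicate 1 (adjusted p = 0.0913), normoxic replicate 2 (0.0607) or hypoxic replicate 3 (0.0721). ALDOA nevertheless remained at or above 98.2% of the per-kilobase level of the step in every library.

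The stretch just upstream of the ALDOC start is shown because ALDOC had the largest log2 fold change of the chain in HepG2 cells beside HK1. It is the sequence from base -120 to -1 relative to the start site in RefSeq (chr17:28576896-28577015 of GRCh38.p14, minus strand, written 5′ to 3′), with each ACGTG or GCGTG, read on either strand, in capitals.
ALDOC: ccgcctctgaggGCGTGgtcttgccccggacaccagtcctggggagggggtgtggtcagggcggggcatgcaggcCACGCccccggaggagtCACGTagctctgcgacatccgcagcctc
The window holds 3 matches, all of them upstream of the start.

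TPI1, which interconverts the triose phosphates, rose from 1086, 1200.5 and 1055 CPM to 1619.7, 1839.7 and 1541 CPM in HKC-8 cells. Its RCC4+VHL libraries read 943, 982 and 971 CPM in normoxia and 1673, 1672 and 1654 CPM in hypoxia, and its HepG2 libraries 529.9, 512 and 497 CPM and 1217, 1177 and 1247 CPM. The log2 fold change was 0.59 ± 0.10 (adjusted p = 0.00466), 0.79 ± 0.03 (adjusted p = 2.98e-16) and 1.24 ± 0.06 (adjusted p = 3.13e-09) in HKC-8, RCC4+VHL and HepG2 cells. GAPDH, which oxidises glyceraldehyde 3-phosphate and is often used as a loading control, read 5146, 6056 and 5035 CPM in normoxic and 6909, 8569 and 6735 CPM in hypoxic HKC-8 cells. RCC4+VHL cells had 5580.1, 5762 and 5555 CPM and 8476, 8679 and 8338 CPM of GAPDH, and HepG2 cells 2776, 2634 and 2669 CPM and 6008, 5696 and 6033 CPM. GAPDH rose in all 3 lines, by 0.46 ± 0.12 (adjusted p = 0.0310), 0.60 ± 0.03 (adjusted p = 1.72e-14) and 1.13 ± 0.06 (adjusted p = 1.04e-08). It had the highest level per kilobase of the 35 genes in each of the 6 groups. In HKC-8 cells its call was lost without normoxic replicate 1 (adjusted p = 0.13), hypoxic replicate 1 (0.0711) or hypoxic replicate 2 (0.0684).

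PGK1 (GRCh37 chrX:77166236-77384792, plus strand) makes the first ATP of the chain. Its HKC-8 libraries read 699, 706 and 686 CPM in normoxia and 2567, 2507 and 2282 CPM in hypoxia. RCC4+VHL cells went from 792, 805 and 822 CPM to 2751, 2890.2 and 2769.9 CPM of PGK1, and HepG2 cells from 456, 447 and 425 CPM to 2016, 1919 and 1854 CPM. The log2 fold changes were 1.82 ± 0.08 (adjusted p = 5.11e-06), 1.80 ± 0.03 (adjusted p = 9.94e-23) and 2.12 ± 0.07 (adjusted p = 2.43e-11), or 3.53, 3.49 and 4.36 times the normoxic level. The window from base -220 to -160 upstream of its RefSeq start (chrX:78104028-78104088 of GRCh38.p14, plus strand, 5′ to 3′) is shown for its closely spaced matches, again with ACGTG or GCGTG of either strand in capitals.
PGK1: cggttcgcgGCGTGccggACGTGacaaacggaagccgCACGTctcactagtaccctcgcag
Within these 61 bases there are 3 matches.

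**Figure D3:**
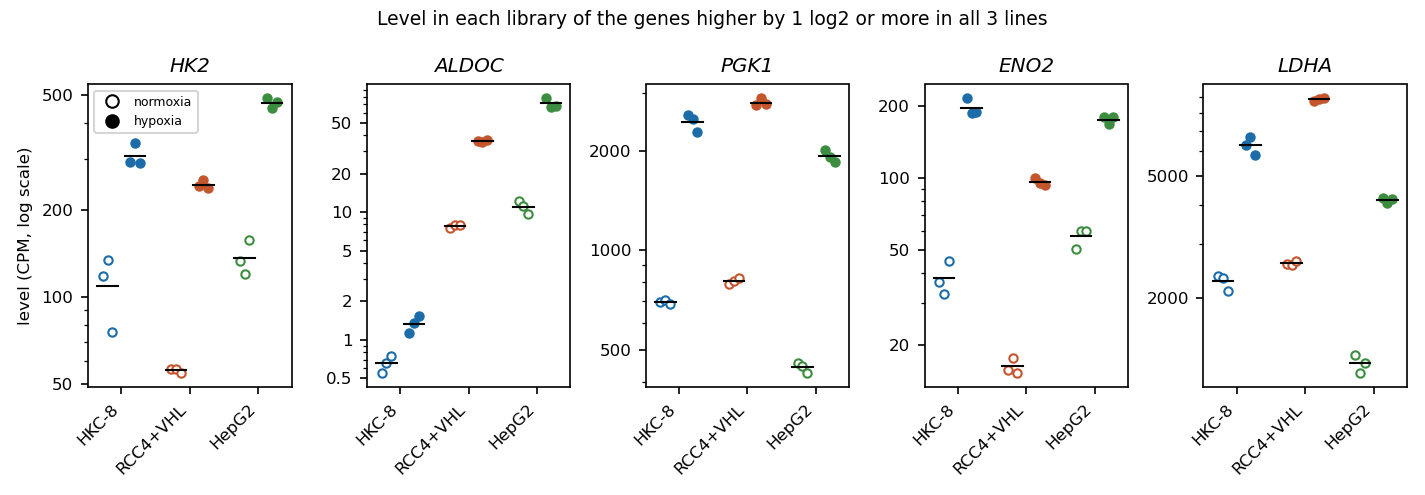
Level in CPM on a log y axis of the 5 genes called higher by at least 1 log2 in every line, for each library of the 3 lines on the x axis (open points normoxia, filled points hypoxia, black line the mean of 3). For each gene and line shown, each hypoxic library lies above each normoxic library of its line.

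Phosphoglycerate mutase moves the phosphate of 3-phosphoglycerate. PGAM1 read 476, 488 and 461 CPM in normoxic and 736, 788 and 656 CPM in hypoxic HKC-8 cells. Its RCC4+VHL libraries had 459, 471 and 479 CPM and 693, 712 and 698 CPM. HepG2 cells had 479, 460.1 and 458 CPM and 989, 959 and 992 CPM. Its log2 fold change was 0.62 ± 0.09 (adjusted p = 0.00243), 0.58 ± 0.03 (adjusted p = 3.53e-13) and 1.07 ± 0.06 (adjusted p = 9.14e-09). PGAM2, the muscle form, had 10 to 11 counts per normoxic and 6 to 12 per hypoxic RCC4+VHL library and was not called there (-0.12 ± 0.54, adjusted p = 0.875). It did not pass the filter in HKC-8 cells, with 0 to 3 counts in normoxia and 8 to 16 in hypoxia, or in HepG2 cells, with 5 to 12 and 8 to 20. PGAM4 is a near copy of PGAM1, and since reads without a unique place had been removed, the level of PGAM1 is uncertain to that extent, as are those of GAPDH, LDHA, ENO1, TPI1 and ALDOA, which have processed pseudogenes.

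BPGM makes 2,3-bisphosphoglycerate, the red cell ligand of haemoglobin. It was the only gene of the chain that was lower in all 3 lines. HKC-8 libraries had 11.4, 9.68 and 10.9 CPM in normoxia and 7.53, 5.27 and 5.99 CPM in hypoxia. RCC4+VHL libraries had 23.9, 21.6 and 22.9 CPM and 17.95, 16.9 and 18.5 CPM, and HepG2 libraries 8.43, 8.19 and 8.55 CPM and 5.43, 6.12 and 6.21 CPM. Without normoxic replicate 1 the HKC-8 call was lost (adjusted p = 0.0543). In every line each hypoxic library was under each normoxic one, with log2 fold changes of -0.76 ± 0.16 (adjusted p = 0.0107), -0.35 ± 0.06 (adjusted p = 9.66e-05) and -0.50 ± 0.11 (adjusted p = 0.00254).

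Enolase makes phosphoenolpyruvate. ENO1, the common form, went from 3824, 4254 and 3528 CPM to 5846, 6322 and 5543 CPM in HKC-8 cells, 0.61 ± 0.10 on the log2 scale (adjusted p = 0.00455). RCC4+VHL cells went from 2424, 2450.3 and 2455 CPM to 3909, 4023 and 3839 CPM, 0.69 ± 0.03 (adjusted p = 2.29e-15), and HepG2 cells from 2017, 1954 and 2069 CPM to 5128, 4934 and 5181 CPM, 1.34 ± 0.06 (adjusted p = 1.76e-09). ENO2 (GRCh37 chr12:7022909-7032861, plus strand) is the form known from neurons. It read 36.9, 32.7 and 45.1 CPM in normoxic and 215, 186 and 188 CPM in hypoxic HKC-8 cells. RCC4+VHL cells had 15.8, 17.8 and 15.3 CPM and 99.6, 95.2 and 93.4 CPM of it, and HepG2 cells 50.6, 59.9 and 60.1 CPM and 179, 167 and 179 CPM. The log2 fold changes of ENO2 were 2.36 ± 0.12 (adjusted p = 7.63e-06), 2.56 ± 0.05 (adjusted p = 4.63e-21) and 1.62 ± 0.07 (adjusted p = 1.95e-09), the largest of all tested members in both kidney lines.

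ENO3, the muscle enolase, had 2.87, 4.08 and 7.25 CPM in normoxic HKC-8 cells and 7.47, 6.65 and 8.34 CPM in hypoxic ones, and its 0.66 ± 0.29 was not called (adjusted p = 0.138). It was called with the replicate number, which paired the HKC-8 libraries, as a block (0.75 ± 0.19, adjusted p = 0.00866), in the single fit of all 18 libraries (0.66, adjusted p = 0.0213) and without normoxic replicate 3 (1.11, adjusted p = 0.00521), whereas the value was 0.40 without normoxic replicate 1. It was lower in RCC4+VHL cells, 7.05, 8.15 and 7.86 CPM after 9.01, 9.04 and 9.85 CPM (-0.27 ± 0.10, adjusted p = 0.0241). HepG2 cells had 22.4, 22.3 and 17.1 CPM and 21.3, 22.7 and 20.0 CPM of it, which overlapped (0.05 ± 0.11, adjusted p = 0.746, and -0.04 when scaled by total count alone). The RCC4+VHL call was lost in a fit of all 18 libraries (adjusted p = 0.407), without normoxic replicate 3 (0.0782) and without hypoxic replicate 1 (0.0964). ENO1 kept at least 96.8% of the per-kilobase level of the step in every library, and ENO2 went from 0.628% ± 0.160 to 2.06% ± 0.220 in HKC-8 and from 0.417% ± 0.0325 to 1.52% ± 0.0562 in RCC4+VHL cells.

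Bases -180 to -61 of the enolase genes called in all lines are shown so that the paralogues can be compared over the same interval (RefSeq, GRCh38.p14; ENO1 chr1:8878747-8878866, minus strand, and ENO2 chr12:6914400-6914519, plus strand; 5′ to 3′, matches in capitals as above).
ENO1: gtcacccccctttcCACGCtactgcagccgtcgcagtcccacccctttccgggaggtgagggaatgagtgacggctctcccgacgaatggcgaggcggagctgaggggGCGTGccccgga
ENO2: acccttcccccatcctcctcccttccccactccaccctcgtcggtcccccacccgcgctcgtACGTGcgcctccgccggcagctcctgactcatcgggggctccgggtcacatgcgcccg
There are 2 matches in the ENO1 window, both of GCGTG, and 1 in the ENO2 window, of ACGTG. The log2 fold change of ENO2 was the larger in all 3 lines, and a relation between matches and response was not tested.

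Pyruvate kinase closes glycolysis with its last ATP. PKM had 3125, 3741 and 3239 CPM in normoxic and 4352, 5044 and 4177 CPM in hypoxic HKC-8 cells, and 3210.1, 3358 and 3308 CPM and 4687, 4639 and 4780.2 CPM in RCC4+VHL cells. HepG2 libraries had 1318, 1274 and 1378 CPM in normoxia and 2721, 2597 and 2834 CPM in hypoxia. PKM rose by 0.43 ± 0.11 (adjusted p = 0.0255), 0.52 ± 0.03 (adjusted p = 4.15e-13) and 1.04 ± 0.06 (adjusted p = 3.19e-08), and gene counts do not tell its spliced M1 and M2 forms apart. The HKC-8 call was lost without normoxic replicate 1 (adjusted p = 0.121), hypoxic replicate 1 (0.0722) or hypoxic replicate 2 (0.0581). PKLR, the liver and red cell gene, was measurable in HepG2 cells only, at 14.96, 15.2 and 13.8 CPM and 14.0, 13.3 and 13.1 CPM, and was not called (-0.13 ± 0.09, adjusted p = 0.280). It had no count in RCC4+VHL cells and at most 2 counts in any HKC-8 library.

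LDHA (GRCh37 chr11:18416107-18429972, plus strand) codes for the subunit of lactate dehydrogenase that favours lactate, and LDHB (chr12:21788276-21910791, minus strand) for the one that favours pyruvate. LDHA rose from 2363, 2325 and 2117 CPM to 6305, 6646 and 5839 CPM in HKC-8 cells. RCC4+VHL cells went from 2591, 2558 and 2645 CPM to 8711, 8861 and 8909.8 CPM, and HepG2 cells from 1310.3, 1145 and 1232 CPM to 4229.7, 4068 and 4199 CPM. The log2 fold change of LDHA was 1.47 ± 0.09 (adjusted p = 2.08e-05), 1.77 ± 0.03 (adjusted p = 2.41e-23) and 1.76 ± 0.07 (adjusted p = 2.14e-10). LDHB in HKC-8 cells read 1504, 1609 and 1359.5 CPM in normoxia and 1287, 1365 and 1165 CPM in hypoxia, not called at -0.22 ± 0.10 (adjusted p = 0.131) but called with the replicate block (-0.22 ± 0.05, adjusted p = 0.00573). RCC4+VHL cells had a small fall, from 1332, 1343 and 1390.4 CPM to 1251, 1265 and 1251 CPM (-0.10 ± 0.03, adjusted p = 0.00557). HepG2 cells had next to none of it, 2.47, 1.97 and 2.58 CPM in normoxia and 1.93, 2.06 and 3.08 CPM in hypoxia (0.01 ± 0.21, adjusted p = 0.986, and -0.09 when scaled by total count alone).

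Per kilobase of the longest coding transcript, LDHA made up 51.1% ± 1.14 of the step in normoxic and 77.2% ± 0.266 in hypoxic HKC-8 cells, 56.8% ± 0.305 and 82.8% ± 0.166 in RCC4+VHL cells and 99.7% ± 0.0270 and 99.9% ± 0.0212 in HepG2 cells. With the union of all exons as the length, normoxic LDHA fell to 43.0% in HKC-8 and 48.7% in RCC4+VHL cells, so which subunit leads in normoxia depends on the gene model, whereas LDHA led in hypoxia with either length. LDHC, the testis form, had at most 3 counts in any library. LDHD, which oxidises D-lactate, was seen in HepG2 cells at 11.9, 8.10 and 7.66 CPM and 7.86, 6.82 and 7.47 CPM and was not called (-0.32 ± 0.15, adjusted p = 0.112). The LDHD value was called lower with total counts (-0.42, adjusted p = 0.0393), with the replicate block (-0.31, adjusted p = 0.0485) and without normoxic replicate 3 (-0.45, adjusted p = 0.0187), and was -0.10 without normoxic replicate 1.

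The same upstream interval of both subunit genes, bases -200 to -61, is shown because they responded differently (RefSeq, GRCh38.p14; LDHA chr11:18394363-18394502, plus strand, from the first of its starts in the table, and LDHB chr12:21657903-21658042, minus strand; 5′ to 3′, matches in capitals).
LDHA: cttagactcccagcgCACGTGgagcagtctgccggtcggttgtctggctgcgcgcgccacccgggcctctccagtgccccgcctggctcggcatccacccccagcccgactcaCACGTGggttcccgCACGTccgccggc
LDHB: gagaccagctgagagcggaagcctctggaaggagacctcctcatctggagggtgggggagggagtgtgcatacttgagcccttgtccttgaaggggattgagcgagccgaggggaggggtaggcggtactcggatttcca
The LDHA window holds 3 matches, in which palindromic stretches count as 1, and the LDHB window holds none. Whether this relates to their responses was not tested.

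Over the RefSeq promoters, from 250 bases before to 50 after each start, 34 of the 35 genes were matched by symbol, with 56 starts. ACGTG or GCGTG, on either strand and with overlapping matches merged, was found in 33 of the 56 (58.9%), against 48.4% of all 35116 promoters in the table. At least 2 matches were found in 11 of the 56 (19.6%), against 20.0% of all promoters. Counted by gene, 26 of the 34 (76.5%) had a match at 1 or more starts, against 52.4% of all 27305 symbols. A gene with more starts has more chances to hold a match. Among the 16 genes higher in all 3 lines, 20 of 30 promoters held a match (66.7%), and among the other members 13 of 26. At least 2 matches were in 8 of these 30 (26.7%) and in 3 of these 26 (11.5%). None of these shares was tested. A match is a description of letters and no binding site. The promoters of PGAM1 and H6PD held no match, and both genes rose in all 3 lines. LDHB held 1 match, downstream of its start.

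Of the pentose phosphate arm's 8 genes, all passed the filter in each line, and 2 were higher and 1 lower in HKC-8, 1 higher and 7 lower in RCC4+VHL, and 2 higher and 4 lower in HepG2 cells, with median log2 fold changes of -0.12, -0.13 and -0.15. Over all genes tested the higher calls were 11.2%, 25.9% and 19.9%, so the arm's share of higher calls was not below that of all genes in HKC-8 or HepG2 cells and was below it in RCC4+VHL cells. The lower calls over all genes were 9.12%, 24.2% and 19.2%. H6PD, the dehydrogenase of the endoplasmic reticulum that starts the pathway there, was called higher in all 3 lines. It went from 5.50, 4.72 and 9.73 CPM to 12.9, 11.9 and 20.2 CPM in HKC-8 cells, without overlap (1.17 ± 0.29, adjusted p = 0.0227). RCC4+VHL cells had 17.3, 17.0 and 15.9 CPM and 22.2, 22.1 and 21.6 CPM (0.40 ± 0.06, adjusted p = 1.58e-05), and HepG2 cells 45.5, 40.8 and 42.8 CPM and 86.7, 87.1 and 88.2 CPM (1.02 ± 0.06, adjusted p = 2.62e-08). The RCC4+VHL call of H6PD was lost in the single fit of all 18 libraries (0.39, adjusted p = 0.162). In HKC-8 cells the call was lost without normoxic replicate 1 (adjusted p = 0.0974), normoxic replicate 2 (0.0581), hypoxic replicate 1 (0.0542) or hypoxic replicate 3 (0.0735).

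PGLS, which hydrolyses 6-phosphogluconolactone, rose in HKC-8 cells from 15.1, 16.1 and 18.3 CPM to 20.5, 25.003 and 24.9 CPM (0.52 ± 0.12, adjusted p = 0.0191) and in HepG2 cells from 30.8, 27.9 and 26.7 CPM to 38.4, 37.3 and 39.0 CPM (0.42 ± 0.07, adjusted p = 5.04e-04). RCC4+VHL cells had less of it in hypoxia, 58.2, 54.3 and 58.2 CPM after 60.3, 62.5 and 63.3 CPM (-0.12 ± 0.05, adjusted p = 0.0342). The RCC4+VHL call was lost in 4 of the 13 alternatives, among them the runs without normoxic replicate 2 or 3 or hypoxic replicate 2, and the HKC-8 call in 3, those without normoxic replicate 1 or 2 or hypoxic replicate 3. PGD, which makes NADPH in the next reaction, had log2 fold changes of -0.08 ± 0.09, -0.17 ± 0.03 and -0.09 ± 0.06 in HKC-8, RCC4+VHL and HepG2 cells and was called, as lower, in RCC4+VHL only (adjusted p = 2.70e-04).

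The non-oxidative enzymes, which shuffle carbon between pentoses and glycolytic sugars, had small negative values throughout. Transaldolase (TALDO1) was lower in each line, at -0.26 ± 0.08 (adjusted p = 0.0462), -0.09 ± 0.03 (adjusted p = 0.0314) and -0.19 ± 0.07 (adjusted p = 0.0361), and its calls were lost in 6, 5 and 4 of the 13 alternatives. The HKC-8 call was lost without any 1 of its libraries other than hypoxic replicate 2 (adjusted p = 0.0501 to 0.148), the RCC4+VHL call without normoxic replicate 2 or 3 or hypoxic replicate 1 or 3 (0.0605 to 0.118), and the HepG2 call without normoxic or hypoxic replicate 1 or 2 (0.0579 to 0.16). Transketolase (TKT) stood at -0.25 ± 0.10, -0.13 ± 0.03 and -0.11 ± 0.06 and was called in RCC4+VHL cells (adjusted p = 0.00146). In HKC-8 cells TKT was not called (adjusted p = 0.0929), but it was with the replicate block (-0.25 ± 0.05, adjusted p = 0.00332), in the single fit of all 18 libraries (0.00687), with total counts (0.0443) and without normoxic replicate 3 (0.0426). In HepG2 cells it was called with total counts alone (adjusted p = 0.0121). Ribose-5-phosphate isomerase (RPIA) stood at -0.36 ± 0.14, -0.15 ± 0.06 and -0.38 ± 0.06, lower in RCC4+VHL (adjusted p = 0.0447) and HepG2 cells (adjusted p = 3.97e-04), and in HKC-8 cells with the block (-0.35 ± 0.07, adjusted p = 0.00189), in the single fit (0.009) and without normoxic replicate 3 (0.0171), and the RCC4+VHL call was lost in 7 of the 13 alternatives, among them DESeq2 (adjusted p = 0.0529) and the loss of any 1 library other than normoxic replicate 1 (0.0584 to 0.184). The epimerase RPE was lower in RCC4+VHL (-0.11 ± 0.04, adjusted p = 0.0253) and HepG2 cells (-0.21 ± 0.06, adjusted p = 0.0106). The RPE calls were lost in RCC4+VHL without normoxic replicate 3 (adjusted p = 0.064), hypoxic replicate 1 (0.0618) or hypoxic replicate 3 (0.0692) and in the single fit of all 18 libraries (0.148), and in HepG2 without hypoxic replicate 3 (0.0553).

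TIGAR, a phosphatase that lowers fructose 2,6-bisphosphate and so favours the pentose branch, had 48.3, 42.7 and 48.8 CPM in normoxic and 28.7, 28.4 and 30.1 CPM in hypoxic HepG2 cells (-0.68 ± 0.07, adjusted p = 7.08e-06). It was also lower in RCC4+VHL cells, with overlapping libraries, 60.3, 58.0 and 66.5 CPM after 71.7, 66.4 and 74.5 CPM (-0.20 ± 0.05, adjusted p = 0.00325), and in HKC-8 cells it read 62.4, 57.1 and 56.7 CPM and 60.9, 52.2 and 49.2 CPM without being called (-0.11 ± 0.10, adjusted p = 0.430). The fructose-1,6-bisphosphatases, which run the phosphofructokinase step backwards in gluconeogenesis, were near 0. FBP1 had no count in RCC4+VHL cells and at most 0.179 CPM elsewhere, and FBP2, tested in HepG2 cells only, was at 0.191 to 0.317 CPM in normoxia and 0.152 to 0.310 CPM in hypoxia (-0.22 ± 0.44, adjusted p = 0.736).

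A related list of 29 further genes of sugar metabolism, 28 of them present in the tables, holds, among others, minor isozymes and glycogen and gluconeogenic enzymes. In HKC-8 cells 19 of these passed the filter, with 2 higher and 2 lower, in RCC4+VHL 17 with 6 higher and 8 lower, and in HepG2 cells 21 with 5 higher and 5 lower. In HKC-8 and HepG2 cells these shares, 10.5% and 23.8% in each direction, were near those over all genes (11.2% higher and 9.12% lower, 19.9% and 19.2%), and in RCC4+VHL cells 35.3% were higher and 47.1% lower beside 25.9% and 24.2%. Their median log2 fold changes were 0.16, -0.08 and -0.04. PGM1, phosphoglucomutase, which links glycogen to glucose 6-phosphate, was higher in all 3 lines, at 2.27 ± 0.12 (adjusted p = 7.09e-06), 0.79 ± 0.03 (adjusted p = 4.75e-15) and 1.33 ± 0.09 (adjusted p = 7.83e-08). PCK2, the mitochondrial PEP carboxykinase, was higher in HKC-8 cells by 1.82 ± 0.27 (adjusted p = 0.00305) and was not called in RCC4+VHL (-0.08 ± 0.06, adjusted p = 0.326) or HepG2 cells (-0.10 ± 0.06, adjusted p = 0.176). G6PC, the liver glucose-6-phosphatase, was tested in HepG2 cells only and was higher there (1.23 ± 0.32, adjusted p = 0.00838).

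Whether paralogues of a step responded alike was asked by the log2 ratio of their counts within each library, which needs no scaling between libraries. Of 14 pairs, 11 could be tested, and the mean shift over the lines was set against every relabelling of the libraries within lines in an exact two-sided permutation test, adjusted over the 11 pairs. With 3 lines the smallest p this allows is 0.00025, and within 1 line, 3 libraries against 3, it is 0.10. LDHB over LDHA shifted by -1.78 log2 (exact p = 2.50e-04, adjusted p = 6.88e-04), with -1.69 in HKC-8, -1.87 in RCC4+VHL and -1.77 in HepG2 cells. The shifts of the 3 lines lay close together, although the level of LDHB in HepG2 cells is far below that of the others, and their difference was not tested.

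PFKL over PFKM rose by 1.13 (exact p = 2.50e-04, adjusted p = 6.88e-04) and PFKP over PFKM by 1.17 (exact p = 2.50e-04, adjusted p = 6.88e-04), each without overlap between the conditions in any line. For PFKP over PFKL the mean shift was 0.04 (exact p = 0.745, adjusted p = 0.745), made up of -0.39 in HKC-8, 0.19 in RCC4+VHL and 0.31 in HepG2 cells. ENO2 over ENO1 rose by 1.31 (exact p = 2.50e-04, adjusted p = 6.88e-04), by 1.76 and 1.88 in the kidney lines and 0.29 in HepG2 cells. ALDOC over ALDOA rose by 0.86 (exact p = 0.00150, adjusted p = 0.00330), by 1.31 in RCC4+VHL and 1.19 in HepG2 cells, while the shift in HKC-8 cells was 0.09 with overlapping libraries. ENO3 over ENO1 shifted (-0.69, exact p = 0.0127, adjusted p = 0.0200) on the mean over lines, by -0.96 in RCC4+VHL and -1.28 in HepG2 cells, while HKC-8 cells stood at 0.15 with overlapping libraries, and without normoxic HKC-8 replicate 3 the adjusted p was 0.0601.

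HK1 and HK2 were each called higher in all 3 lines, but the ratios between hexokinases did not share a direction among lines. HK2 over HK1 shifted by 0.71 in HKC-8 and 0.80 in RCC4+VHL cells but by -0.91 in HepG2 cells, with no overlap in any of them, and the mean of 0.20 was not past the threshold (exact p = 0.388, adjusted p = 0.427). HKDC1 over HK1 shifted by -1.37 (exact p = 0.00475, adjusted p = 0.00871), with -1.54 in RCC4+VHL and -2.99 in HepG2 cells and 0.43, with overlap, in HKC-8 cells. PGAM2 over PGAM1 and PKLR over PKM could be formed in 1 line each, where the exact test cannot go under 0.10, with shifts of -0.76 in RCC4+VHL and -1.16 in HepG2 cells.

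**Figure D4:**
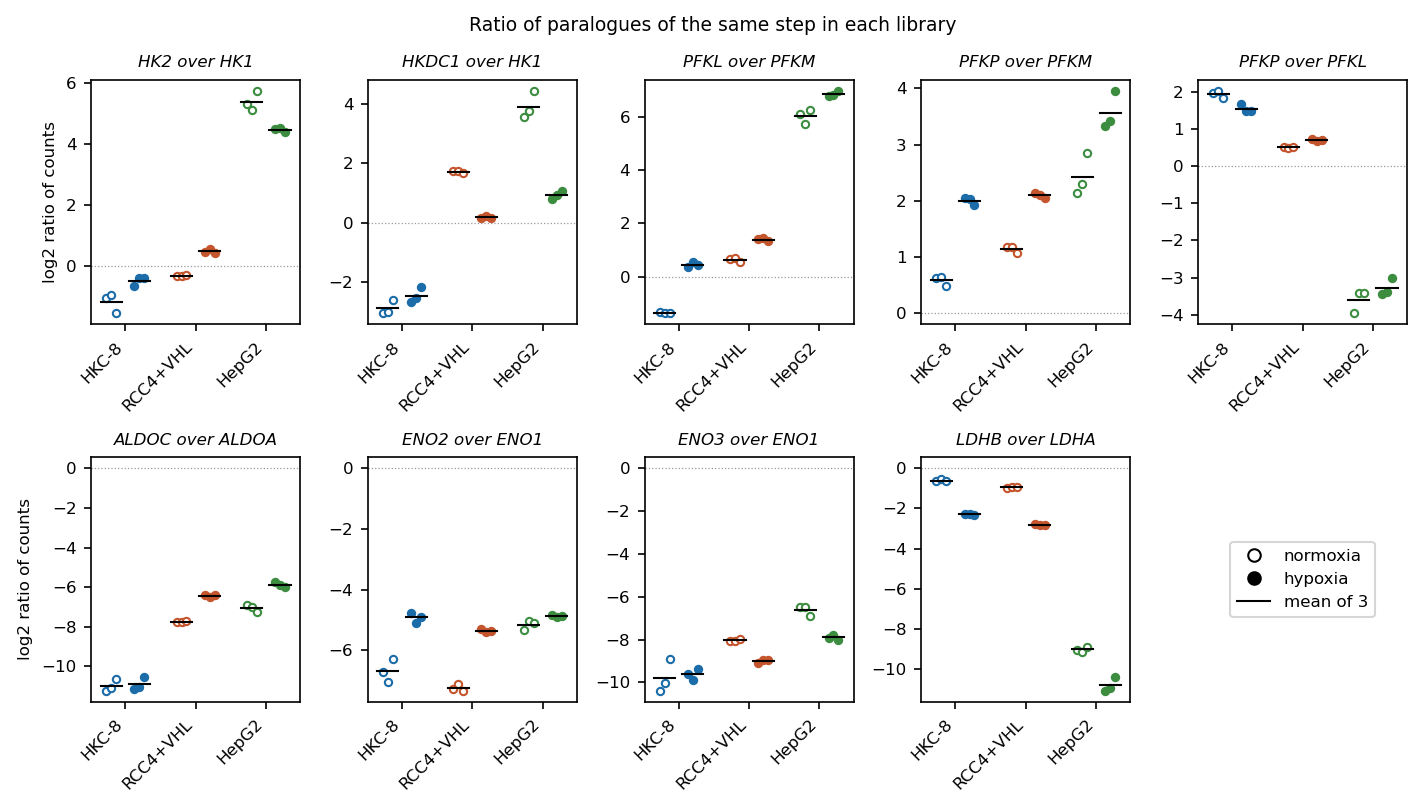
Log2 ratio of the counts of paralogues of the same step on the y axis, in each library of the 3 lines on the x axis (open points normoxia, filled points hypoxia, black line the mean of 3, dotted line equal counts). Ratios to PFKM rise and LDHB over LDHA falls in every line, whereas HK2 over HK1 rises in both kidney lines and falls in HepG2.

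The response of HepG2 cells could be compared with that of HKC-8 cells, since both are labelled with the same exposure, apart from the 0.1 in the HKC-8 titles. A joint fit of 12 libraries tested the difference of the log2 fold changes, HepG2 minus HKC-8. Of 32 members that passed the filter there, 9 responded more positively in HepG2 cells and 4 less, where 5.02% of all genes tested were called in the first direction and 4.28% in the second. The 32 include members that did not pass the filter within both lines. LDHD, which passed within HepG2 cells alone, is among the 4, so its call is not read as a difference in response. With total counts in place of TMM the share of calls in the first direction went from 54.0% to 32.8% over all genes, and the median of all genes moved by -0.10, while the members gave 9 and 5, beside 3.04% and 6.23% of all genes.

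HK1 differed most among the genes that responded more in HepG2 cells, by 1.87 ± 0.14 (adjusted p = 6.43e-07). Its level in normoxic HepG2 cells was low, at 2.13% of the per-kilobase level of the hexokinase step. ALDOC differed by 1.66 ± 0.21 (adjusted p = 1.23e-04), on an HKC-8 level of about 1 CPM. The enzymes after aldolase included ENO1 at 0.73 ± 0.12 (adjusted p = 0.00113), GAPDH at 0.68 ± 0.14 (adjusted p = 0.00624), TPI1 at 0.66 ± 0.11 (adjusted p = 0.00176) and PKM at 0.61 ± 0.13 (adjusted p = 0.00686). ALDOA at 0.57 ± 0.13 (adjusted p = 0.0113) and PGAM1 at 0.46 ± 0.10 (adjusted p = 0.0110) were also called. PFKM differed by 0.69 ± 0.17 (adjusted p = 0.0196), with about 2 CPM in HepG2 cells, and the call was lost without hypoxic HepG2 replicate 1 (adjusted p = 0.0749) or 2 (0.0553).

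ENO2 responded less in HepG2 cells, with a difference of -0.74 ± 0.15 (adjusted p = 0.00583), as did HKDC1 at -1.56 ± 0.21 (adjusted p = 2.50e-04), and TIGAR at -0.56 ± 0.12 (adjusted p = 0.00986). LDHD was called as well (-2.34 ± 0.67, adjusted p = 0.0419) but had 1 to 2 counts per normoxic and 3 to 9 per hypoxic HKC-8 library, and 8 of 17 alternatives lost the call. With the replicate number as a block, which pairs the HKC-8 libraries, 13 members responded more in HepG2 and 6 less, beside 11% and 9.06% of all genes. The added calls were GPI (0.30 ± 0.07, adjusted p = 0.0115), PGK1 (0.31 ± 0.08, adjusted p = 0.0109), LDHA (0.30 ± 0.08, adjusted p = 0.0136), PFKP (0.41 ± 0.11, adjusted p = 0.0139), PFKL (-0.29 ± 0.09, adjusted p = 0.0345) and ENO3 (-0.68 ± 0.22, adjusted p = 0.0416).

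**Figure D5:**
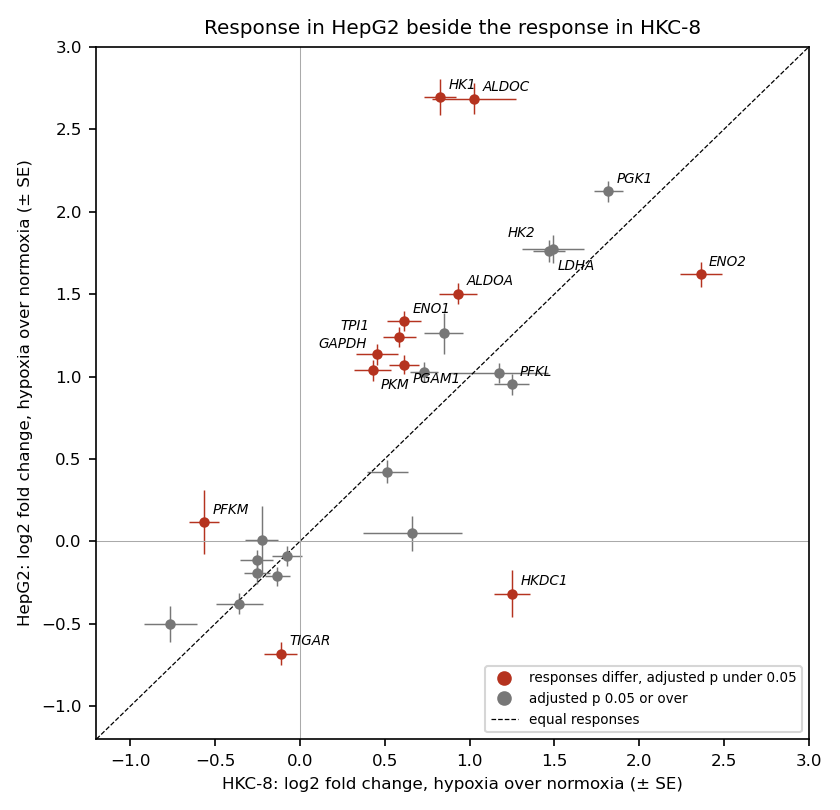
Log2 fold change of hypoxia over normoxia in HKC-8 cells (x axis) and HepG2 cells (y axis) with standard errors, for the 28 genes that passed the filter in both lines (3 libraries a group). Red points differed between the lines at an adjusted p under 0.05, and the dashed line marks equal responses. HK1 and ALDOC lie farthest above the line and HKDC1 farthest below it.

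Before hypoxia the lines already differed in the level of members, tested gene by gene in a fit of the 9 normoxic libraries. The share or ratio of paralogues in normoxia was not tested between lines. Members called in either direction numbered 25 of 31 for HepG2 against HKC-8 cells, 24 of 31 for RCC4+VHL against HKC-8 and 26 of 31 for HepG2 against RCC4+VHL, where 83.0%, 80.8% and 83.3% of all genes were called, so these shares were near the background. Some of the differences were large. LDHB in HepG2 minus HKC-8 cells stood at -9.30 ± 0.12 log2 (adjusted p = 9.67e-16), PFKM at -6.49 ± 0.12 (adjusted p = 7.73e-15), HK1 at -6.21 ± 0.09 (adjusted p = 2.02e-15) and PFKP at -4.66 ± 0.13 (adjusted p = 4.55e-13). ALDOC was higher there by 4.08 ± 0.16 (adjusted p = 2.24e-11), H6PD by 2.71 ± 0.20 (adjusted p = 1.94e-08) and ENO3 by 2.14 ± 0.25 (adjusted p = 2.32e-06). PKLR and LDHD passed the filter on low counts within a line in HepG2 cells alone, and PGAM2 in RCC4+VHL cells alone. These genes are among the 31 members through the lines that hold them. Their calls against lines nearly without them were favoured by that filter and are not read as results.

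RCC4+VHL cells differed from HKC-8 cells most in ALDOC, 3.58 ± 0.16 (adjusted p = 1.07e-10), and HKDC1, 2.83 ± 0.15 (adjusted p = 3.86e-10), among genes with more than a few counts. PGLS was higher by 1.92 ± 0.09 (adjusted p = 1.35e-10) and H6PD by 1.34 ± 0.20 (adjusted p = 2.54e-05) in RCC4+VHL cells. Lower there were HK1 at -1.79 ± 0.07 (adjusted p = 3.55e-11), ENO2 at -1.22 ± 0.12 (adjusted p = 3.76e-07) and PFKM at -1.13 ± 0.09 (adjusted p = 2.22e-08). PGK1, which has no paralogue among the members, stood at -0.63 ± 0.06 in HepG2 minus HKC-8 cells (adjusted p = 3.65e-07).

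Summed over paralogues, per kilobase, the hexokinase step went from 89.05 to 183.2 CPM per kilobase in HKC-8, from 90.4 to 141.1 in RCC4+VHL and from 38.8 to 99.45 in HepG2 cells, which is 2.06, 1.56 and 2.56 times. The phosphofructokinase step had ratios of 1.52, 1.47 and 1.96, the enolase step 1.55, 1.62 and 2.52, and the lactate dehydrogenase step 1.83, 2.33 and 3.38. For aldolase the ratios were 1.90, 1.88 and 2.86, for phosphoglycerate mutase 1.53, 1.49 and 2.10, and for pyruvate kinase 1.34, 1.43 and 2.04. The ratio was largest in HepG2 cells at each of these 7 steps. The normoxic sum was lowest in HepG2 cells at 5 of them, but for aldolase it was 893 CPM per kilobase in HepG2 against 820.0 in HKC-8 and 1023 in RCC4+VHL cells, and for phosphoglycerate mutase the sums of 264 in HKC-8, 261 in RCC4+VHL and 259 in HepG2 cells lay within the spread of the libraries. These sums are descriptions of means of 3 libraries and were not tested.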

How the data were processed

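PolyA+ RNA of 3 cell lines was sequenced, with 3 libraries per line and oxygen condition. Per the submitters' processing notes and the study's methods, the authors trimmed reads with Trim Galore 0.3.3, aligned them to GRCh37 with TopHat2 2.0.8b and Bowtie 1.0.0, removed reads without a unique place with SAMtools 0.1.19 and counted reads per UCSC gene with HTSeq 0.5.4p3 with the intersection-strict setting. What was deposited are integer counts for 23106 genes, not normalized, and a library's total count lies between 40915980 and 97984260. The strand setting of the counting is not given in the sources used here. The labels map every library to a line and condition.

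Genes with low counts were removed with filterByExpr, libraries were scaled by TMM, and each line was fitted alone with glmQLFit and glmQLFTest of edgeR 4.0.16 in R 4.3.3. P-values were adjusted by Benjamini-Hochberg over all genes tested, with a threshold of 0.05. HepG2 and HKC-8 were fitted together for the difference in response, and the 9 normoxic libraries for the lines. CPM values use TMM factors from 15307 genes over all 18 libraries and were divided by the length of the longest coding transcript (GENCODE on GRCh37) where genes are compared. Paralogue ratios used log2 of counts plus 0.5 and an exact permutation test within lines in Python 3.11.15. The fits were tested on simulated counts. Alternatives were DESeq2 1.42.0, its size factors, total count, other filters, 1 fit of all 18 libraries, a replicate block and leaving out each library.

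Same-numbered HKC-8 libraries deviated together (r = 0.176, 0.631 and 0.577 between normoxic and hypoxic libraries of the same number). By the rule that every pair exceeds 0.1 the numbers pair these libraries. This pairing comes from the labels' replicate numbers and the data rather than from a stated batch. HKC-8 pairs of unlike number ranged from -0.587 to 0.154, the latter for normoxic replicate 1 with hypoxic replicate 2, so the rule does not set replicate 1 apart. In RCC4+VHL (-0.006, 0.024 and 0.033) and HepG2 (0.231, 0.055 and 0.226) the rule is not met. HepG2 pairs of unlike number ranged from -0.232 to 0.053, so some pairing in HepG2 is not excluded. Values per library are given for members called in any line with a log2 change of 1 or more in size and for their tested paralogues, and the other members are given by fold change. Promoter sequences are from RefSeq on GRCh38.p14, whereas gene positions are on GRCh37. Protein identity of the paralogues was not analysed here. Genes of the related list of sugar metabolism are given mainly as counts, and most are not reported singly here. The members, lists and tests were chosen with earlier results of these data known.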

Additional observations from a re-analysis of the deposited data

Results flagged for a closer look

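A difference between HepG2 and HKC-8 cells in the response to hypoxia, tested in the joint edgeR fit, drew attention to 13 members. On the log2 scale, HepG2 minus HKC-8, these were HK1 at 1.87, ALDOC at 1.66, ENO1 at 0.73, PFKM at 0.69, GAPDH at 0.68, TPI1 at 0.66, PKM at 0.61, ALDOA at 0.57 and PGAM1 at 0.46. The others responded less in HepG2 cells, namely LDHD at -2.34, HKDC1 at -1.56, ENO2 at -0.74 and TIGAR at -0.56. LDHD rests on at most 9 counts in any HKC-8 library, where it did not pass the filter within the line, and is not read as a difference in response.

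HKDC1 and PGLS were called in opposite directions in different lines, and these differences were not tested because the exposure of RCC4+VHL cells is labelled differently. HKDC1 stood at -0.21 in RCC4+VHL and 1.25 in HKC-8 cells. PGLS stood at -0.12 in RCC4+VHL, 0.52 in HKC-8 and 0.42 in HepG2 cells.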

How the results depend on the processing

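Higher calls among the members kept within 1.5 times of their number under every alternative, while lower calls did not. In HKC-8 cells 3 lower calls became 5 in 1 fit of all 18 libraries and 6 with the replicate block, and 1 (without normoxic replicate 1) to 4 when a library was left out. In RCC4+VHL cells 12 became 1 in the fit of all 18 libraries and 7 (without normoxic replicate 3) to 12 when a library was left out, and in HepG2 cells 5 became 9 with total counts. The biological coefficient of variation behind these calls was 0.0437 in RCC4+VHL alone and 0.0929 in the fit of all 18 libraries.

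Uncalled members changed sign. HepG2 ENO3 stood at -0.0431 with total counts and at -0.0716 to 0.121 with a library left out, and HepG2 LDHB at -0.0878 with total counts, -0.00415 with the replicate block and -0.226 to 0.128 with a library left out. Leaving out a library also gave -0.0103 to 0.263 for HepG2 PFKM, -0.46 to 0.0303 for HepG2 FBP2, -0.308 to 0.141 for RCC4+VHL PGAM2 and -0.0223 to 0.0687 for PFKP over PFKL, and ENO3 over ENO1 ranged from -0.795 to -0.553, past the threshold except without normoxic HKC-8 replicate 3. The cause was not tested in any of these.

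Over all genes, HKC-8 gave 1522 higher and 1235 lower calls, but 2503 and 2510 in the fit of all 18 libraries, 2836 and 2919 with the replicate block, and 687 to 1794 and 326 to 1489 with a library left out. RCC4+VHL gave 3318 and 3105, but 1867 and 1419 in the fit of all 18. HepG2 gave 2708 and 2621, but 1978 and 4081 with total counts. The difference between these lines gave 755 and 644, but 458 and 938 with total counts, 1656 and 1363 with the block, and 481 to 932 and 430 to 1000 with a library left out. For the members the block gave 16 higher and 12 lower in RCC4+VHL, 17 and 7 in HepG2, and 13 and 6 for the difference, and it moved no call on a paralogue ratio. Members that did not pass the filter on low counts in a line have no test in that line's own fit. A change in them was not detectable in that fit at these counts.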
